A study of Mus musculus with 9 samples.

Results

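Tgfb1, Tgfb2, Tgfb3, Tgfbr1, Tgfbr2, Smad3, Smad7, Tgif1, Skil and Ltbp1 encode the ligands, receptors, Smad proteins and regulators of transforming growth factor beta (TGF-beta) signalling. Their levels were read from every probe set that the array's annotation pairs with 1 of these 10 gene symbols, 24 probe sets in all, among 18193 genes with a named probe set. Neuro2a cells, a mouse neuroblastoma line, had received an siRNA against Myt1 (siMyT1), an siRNA against LSD1, a histone demethylase encoded by Kdm1a (siLSD1), or a control siRNA (siControl). RNA was collected after 48 h, with 3 arrays per group and 9 in all. All groups were of the same line and were treated with an siRNA. Each target had 1 siRNA group, so effects of an siRNA on other transcripts cannot be told apart from those on its target. Whether a group's 3 arrays are separate cultures is not in the labels, and the p-values therefore cover only the spread between these arrays, which may be technical.

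TGF-beta is secreted as a latent dimer, and latent TGF-beta binding proteins such as Ltbp1 tether it to the matrix until it is released. The active ligand joins the type II receptor (Tgfbr2) to the type I receptor (Tgfbr1), which phosphorylates Smad2 and Smad3. These enter the nucleus with Smad4, while Smad7 blocks the receptor and the repressors Skil (SnoN) and Tgif1 hold back transcription at Smad sites. In neural crest cells, the origin of sympathetic neurons and of neuroblastoma, TGF-beta is known for driving a smooth muscle fate.

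Levels are given in the units of the deposited table, a linear intensity whose scaling is not given in the sources used here. Array medians over all probe sets lay between 0.302 and 0.424 units, which gives a sense of a dim probe set. Fold changes are on a log2(value + 0.196) scale, which understates changes of dim probe sets, and adjusted p-values are from limma with Benjamini-Hochberg adjustment over 45037 probe sets. A probe set is said to have risen or fallen where that adjusted p was below 0.05. Intervals are limma's 95% intervals. Each siRNA lowered its own target: Myt1 measured 0.660 ± 0.21 units in siMyT1, against 4.90 ± 0.34 in siControl, and Kdm1a measured 4.49 ± 0.40 in siLSD1, against 29.0 ± 1.0 in siControl (SD, n = 3 each, adjusted p = 6.05e-06 and 2.21e-09). Myt1 was also higher on the siLSD1 arrays (6.95 ± 0.72 units) than on all siControl arrays, a difference that did not pass (adjusted p = 0.0956). The line's own markers were present, with 10 measured neuroblastoma genes summing to between 126 and 178 units on every array.

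After siMyT1, 5 of the 10 genes rose and 0 fell, counting each gene by its brightest probe set. They were the 3 ligands Tgfb1, Tgfb2 and Tgfb3, the signal transducer Smad3 and the repressor Tgif1. Over all genes, 3.57% were called higher and 1.56% lower in this comparison. The median log2 fold change of the 10 genes was 0.39, against 0.05 over all genes. After siLSD1, 0 of the 10 genes were called by their brightest probe set, where 3.26% of all genes were called higher and 3.95% lower, and 1 further probe set, of Tgfb2, fell. At an unadjusted p below 0.05, Tgfbr1, Smad3 and Smad7 were higher in siLSD1 by the brightest probe set. The share of all genes at that looser threshold was not counted, so it cannot be read as a trait of the members. In siMyT1 against siLSD1, 4 of the 10 (Tgfb1, Tgfb2, Smad3 and Tgif1) were higher and 0 lower, against 11.3% and 4.77% of all genes. That split depended on the scaling and on which probe sets were tested: 3 were higher and 2 lower (Tgfbr1 and Skil) after quantile normalization, and 3 higher and 1 lower (Tgfbr1) after median centring. It was 4 higher and 1 lower (Tgfbr1) over the brighter probe sets alone, and 5 higher and 1 lower (Tgfbr1) with 1 probe set per gene. The shares of all genes given here are of the main fit and were not counted under these other settings. The comparisons of the knockdowns with siControl share the 3 control arrays. Since the 10 genes were chosen with results of these data known, these counts describe the genes and are not a test of the group.

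Of the 24 probe sets, 6 rose in siMyT1 against siControl, where 3.24% of all probe sets were called in either direction. In siLSD1 against siControl 1 of 24 was called, against 5.05%, and in siMyT1 against siLSD1 7 of 24, against 11.2%. The array values of the brightest probe sets did not overlap between siMyT1 and siControl for 6 of the 10 genes, each with siMyT1 above, where 24.0% of all genes had groups apart in either direction. Between siLSD1 and siControl this held for 2 of 10 (Smad3 and Smad7, siLSD1 above), against 26.8%, and between siMyT1 and siLSD1 for 6 of 10 (5 with siMyT1 above), against 33.0%.

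The sequence just upstream of the start is shown for the members that rose in siMyT1 at levels well above the array medians and that have an entry in RefSeq's table (build GRCm38.p6): Tgfb1, Tgfb2, Smad3 and Tgif1. Each stretch runs 5′ to 3′ on the gene's strand from 250 bases before to 50 bases after the start, and for Tgif1, which has 5 starts in the table, it is the most upstream one. Capitals mark CAGAC, the core of the Smad-binding element, and AAGTT, the core of the motif bound by the Myt1 family, on either strand. The 2 motifs share no base in these windows.
Tgfb1, chr7:25686752-25687051, + strand: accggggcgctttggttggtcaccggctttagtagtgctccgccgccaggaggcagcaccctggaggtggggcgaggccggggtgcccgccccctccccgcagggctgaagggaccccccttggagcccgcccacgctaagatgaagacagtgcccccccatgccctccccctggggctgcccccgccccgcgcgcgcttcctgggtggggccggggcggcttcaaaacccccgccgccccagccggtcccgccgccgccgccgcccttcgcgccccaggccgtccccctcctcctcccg
Tgfb2, chr1:186705940-186706239, - strand: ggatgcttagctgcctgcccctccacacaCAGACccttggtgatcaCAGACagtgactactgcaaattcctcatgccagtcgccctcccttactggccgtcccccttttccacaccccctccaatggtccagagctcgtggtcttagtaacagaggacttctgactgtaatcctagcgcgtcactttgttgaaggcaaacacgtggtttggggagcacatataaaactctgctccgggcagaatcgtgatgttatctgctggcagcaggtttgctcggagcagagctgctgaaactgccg
Smad3, chr9:63757945-63758244, - strand: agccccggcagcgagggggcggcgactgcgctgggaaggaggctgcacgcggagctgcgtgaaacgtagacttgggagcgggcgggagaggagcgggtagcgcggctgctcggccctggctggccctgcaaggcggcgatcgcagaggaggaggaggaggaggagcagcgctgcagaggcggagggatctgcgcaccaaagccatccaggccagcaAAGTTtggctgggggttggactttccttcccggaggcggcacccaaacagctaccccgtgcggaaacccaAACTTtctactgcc
Tgif1, chr17:70853483-70853782, - strand: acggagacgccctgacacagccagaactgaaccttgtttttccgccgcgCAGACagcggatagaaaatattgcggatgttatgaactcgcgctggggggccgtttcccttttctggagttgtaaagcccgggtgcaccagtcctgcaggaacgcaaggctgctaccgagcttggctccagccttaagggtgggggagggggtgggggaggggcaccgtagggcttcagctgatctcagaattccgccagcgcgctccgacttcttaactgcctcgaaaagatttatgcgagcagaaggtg

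CAGAC occurred 2 times in the Tgfb2 window, 1 time in that of Tgif1 and 0 times in those of Tgfb1 and Smad3, and 49.6% of the 32851 promoter windows in the table hold it. AAGTT occurred 2 times in the Smad3 window and 0 times in the other windows shown, and 39.3% of all windows hold it. Neither motif is in all 4 of the windows shown. Members not called in siMyT1 against siControl held them as well: Tgfbr2 had 1 CAGAC and 2 AAGTT, Ltbp1 1 of each and Tgfbr1 0 of each. The windows of Tgfb1 and Smad3 are rich in G and C (77.0% and 67.7%, with 30 and 25 CpG dinucleotides), against a median of 52.7% and 7 CpG over all windows. Those of Tgif1 and Tgfb2 hold 58.0% and 54.3%, with 20 and 10 CpG.

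Tgfb1, the ligand best known for matrix and immune control, measured 3.01, 3.04 and 3.75 units on the siMyT1 arrays (probe set 1420653_at). On the siLSD1 arrays it measured 1.76, 1.52 and 1.96 units, and on the siControl arrays 1.70, 1.89 and 1.63 units. All 3 siMyT1 arrays lay above all others, and the siLSD1 and siControl arrays overlapped. Its log2 fold change was 0.83 in siMyT1 against siControl (SE 0.12, adjusted p = 0.00274), or 1.78-fold, and 0.83 in siMyT1 against siLSD1 (adjusted p = 0.000909). In siLSD1 against siControl it was 0.00, with an interval from -0.26 to 0.27 (adjusted p = 0.999). The other Tgfb1 probe set, 1445360_at, was dim in all groups, at 0.256 ± 0.12, 0.210 ± 0.11 and 0.212 ± 0.12 units in siMyT1, siLSD1 and siControl (SD, n = 3 each), and no comparison called it. The Tgfb1 rise over siControl stayed past the threshold whichever single array was left out (lowest log2 fold change over all alternatives 0.50). It was lost when the 2 probe sets were averaged (adjusted p = 0.130), as was the difference from siLSD1 (adjusted p = 0.0753).

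**Figure D1:**
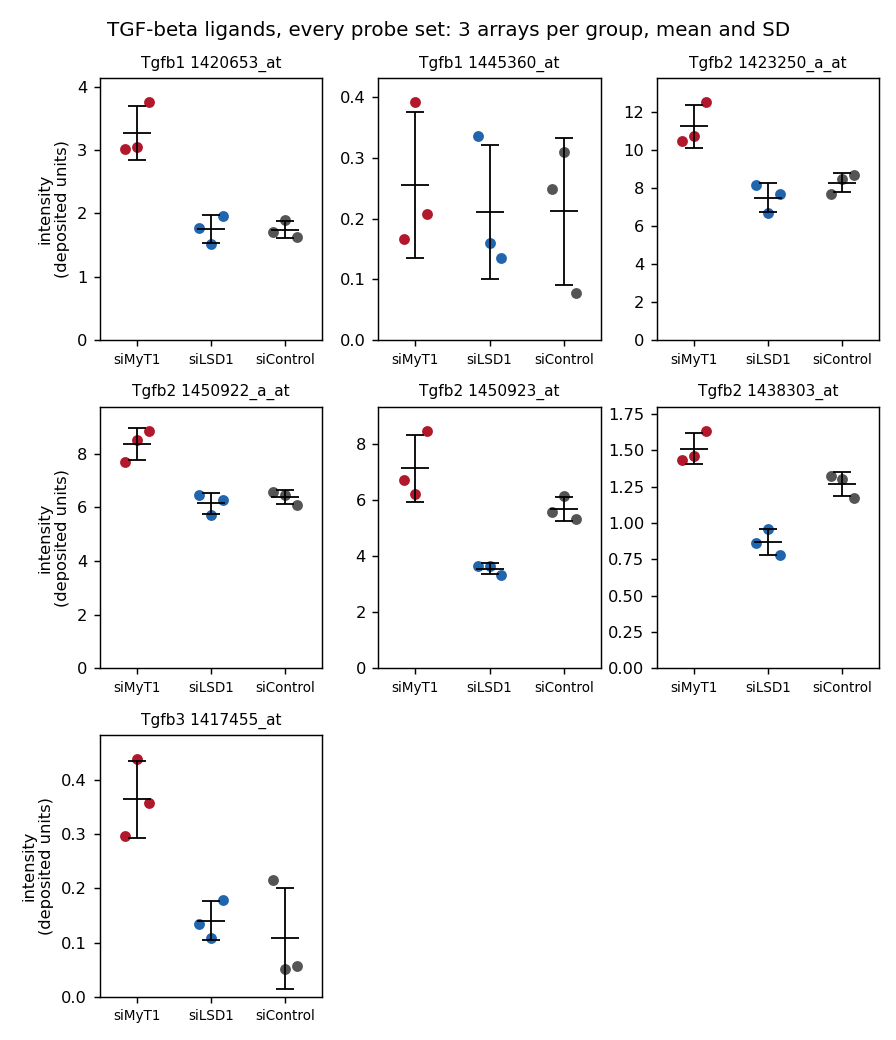
Intensity of each Tgfb1, Tgfb2 and Tgfb3 probe set in deposited units (vertical axes, each starting at 0) on the 3 arrays of siMyT1, siLSD1 and siControl; points are arrays, and the bars are the mean and 1 SD. The siMyT1 points lie above those of siControl for 6 of the 7 probe sets, all but Tgfb1 1445360_at, and the siLSD1 points lie below those of siControl for Tgfb2 1450923_at and 1438303_at.

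Tgfb2, the isoform prominent in the developing nervous system, was read by 4 probe sets that gave unlike pictures of siLSD1. By the brightest, 1423250_a_at, it measured 10.5, 10.7 and 12.5 units in siMyT1, 8.15, 6.65 and 7.65 units in siLSD1 and 7.68, 8.48 and 8.67 units in siControl. The siMyT1 arrays lay above all others, and siLSD1 overlapped siControl. The log2 fold change was 0.43 in siMyT1 against siControl (SE 0.09, adjusted p = 0.0261) and 0.57 in siMyT1 against siLSD1 (adjusted p = 0.00165). In siLSD1 against siControl it was -0.15 (interval -0.34 to 0.05, adjusted p = 0.507). The second, 1450922_a_at, likewise rose in siMyT1 (8.37 ± 0.59 units, against 6.37 ± 0.26 in siControl, log2 fold change 0.38, adjusted p = 0.0181) and not in siLSD1 (6.15 ± 0.38 units, adjusted p = 0.838). In this array's naming, the ending _a_at marks probe sets that match several transcripts of a single gene.

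The remaining Tgfb2 probe sets were lower in siLSD1. On 1450923_at the siLSD1 arrays measured 3.67, 3.66 and 3.33 units, against 5.60, 6.17 and 5.32 units on the siControl arrays, with no overlap. That was a log2 fold change of -0.65 (SE 0.11, adjusted p = 0.00358), the only call among the 24 probe sets in siLSD1 against siControl, and it held in all 20 alternatives that tested this probe set. On the same probe set siMyT1 measured 6.74, 6.21 and 8.49 units, which did not pass against siControl (log2 fold change 0.31, adjusted p = 0.173) but did against siLSD1 (0.96, adjusted p = 0.000148). The fourth, 1438303_at, measured 0.868 ± 0.088 units in siLSD1, against 1.27 ± 0.083 in siControl (log2 fold change -0.46, adjusted p = 0.0646), and 1.51 ± 0.11 in siMyT1 (0.22 against siControl, adjusted p = 0.480). It was called lower in siLSD1 in 5 of 20 alternatives.

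The ratio of 1450923_at to 1423250_a_at on each array, a measure chosen after the values were seen, puts this difference between Tgfb2 probe sets on 1 scale. The log2 ratio was -1.11, -0.83 and -1.15 on the siLSD1 arrays, against -0.44, -0.45 and -0.68 on the siControl arrays. It was -0.62, -0.77 and -0.55 on the siMyT1 arrays, which overlapped siControl. The siLSD1 arrays lay below all others, with a mean difference from siControl of -0.51. Since the probe sets were picked for this difference, it is a description with no test, and which transcripts each probe set reads was not analysed here. For siMyT1 against siControl the calls were less firm. That on 1423250_a_at ended when any siControl array (replicates 1, 2 and 3), or siMyT1 replicate 2 or 3, was left out (adjusted p = 0.117, 0.0552, 0.0552, 0.0676 and 0.112). That on 1450922_a_at ended when siControl replicate 1 or 3, or siMyT1 replicate 2 or 3, was left out (adjusted p = 0.0591, 0.0738, 0.0756 and 0.0904). The call on 1423250_a_at was also lost after median centring (adjusted p = 0.0843) and without an intensity trend (adjusted p = 0.113). On 1450922_a_at it was lost without an intensity trend (adjusted p = 0.0882) and with a replicate block (adjusted p = 0.0559).

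Tgfb3, a ligand of palate and lung development, lay near the bottom of the scale. It measured 0.297, 0.439 and 0.359 units in siMyT1, 0.135, 0.108 and 0.179 units in siLSD1 and 0.215, 0.0522 and 0.0561 units in siControl. The siMyT1 arrays lay above all others, but the siLSD1 and siControl values were under or near the pseudocount of 0.196 units. The log2 fold change of 0.92 in siMyT1 against siControl (SE 0.22, adjusted p = 0.0420) held only when siControl replicate 1 was left out among the 9 arrays: leaving out any other array gave adjusted p-values of 0.0535 to 0.160. Against siLSD1 it was 0.73 (adjusted p = 0.0503). Ltbp1, which anchors latent TGF-beta to the matrix, was dimmer still, with all 3 of its probe sets below 0.131 units on every array and no call.

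Tgfbr2 was called in no comparison, and Tgfbr1 only in some alternatives. Tgfbr1, the type I receptor kinase, measured 18.4, 19.0 and 20.8 units in siMyT1, 23.9, 21.1 and 22.4 units in siLSD1 and 19.8, 21.1 and 19.5 units in siControl by 1420895_at. The siMyT1 arrays overlapped siControl and lay below siLSD1. The log2 fold change was -0.05 in siMyT1 against siControl (interval -0.21 to 0.10), 0.15 in siLSD1 against siControl (0.00 to 0.30, adjusted p = 0.297) and -0.21 in siMyT1 against siLSD1 (-0.36 to -0.06, adjusted p = 0.0807). None of these intervals reaches the size of the Tgfb1 change. After quantile normalization 1420895_at was called higher in siLSD1 than in siControl (0.15, adjusted p = 0.0316) and lower in siMyT1 than in siLSD1 (-0.23, adjusted p = 0.00147), and the last also after median centring (-0.34, adjusted p = 0.0302). On values that were not rescaled, it was also called lower in siMyT1 than in siLSD1 when only the brighter probe sets were tested (adjusted p = 0.0405) or 1 probe set per gene (adjusted p = 0.0488). The other Tgfbr1 probe sets measured between 2.02 and 3.37 units with overlapping groups. Tgfbr2, the type II receptor that binds the ligand, was at 0.233 ± 0.051, 0.136 ± 0.059 and 0.189 ± 0.095 units in siMyT1, siLSD1 and siControl by its brightest probe set, and below 0.133 units on all arrays by the other 2 probe sets. Its intervals on the brightest probe set reached from -0.67 to 0.85 over the 3 comparisons.

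**Figure D2:**
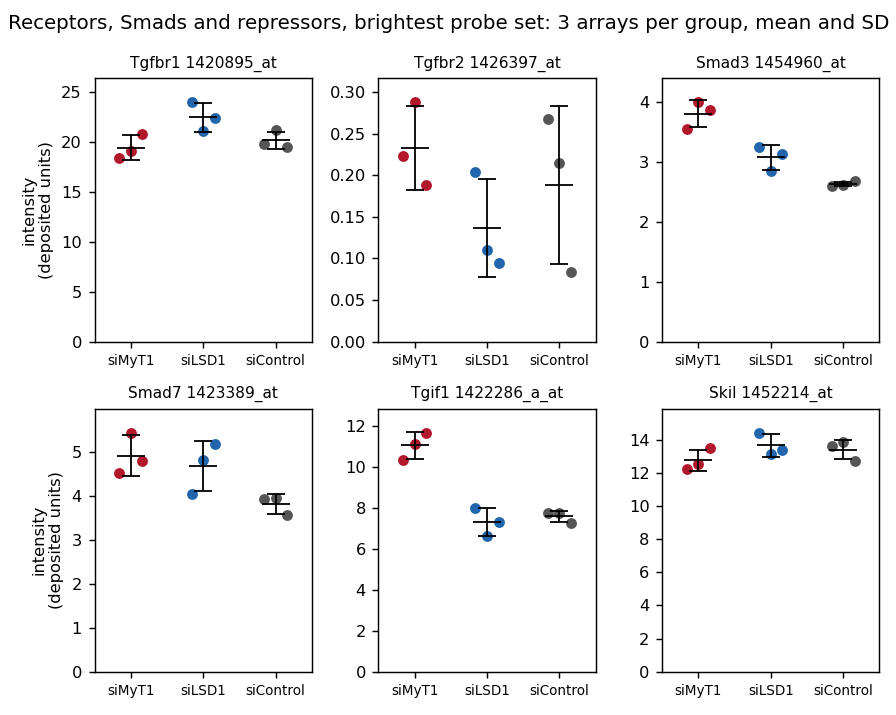
Intensity of the brightest probe set of Tgfbr1, Tgfbr2, Smad3, Smad7, Tgif1 and Skil in deposited units (vertical axes, each starting at 0) on the 3 arrays of each group; points are arrays, and the bars are the mean and 1 SD. Smad3 and Tgif1 in siMyT1 lie above all other arrays, Smad7 lies above siControl in both knockdowns, and the Tgfbr2 points reach no higher than 0.288 units.

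Smad3, the receptor-activated Smad that carries the signal to DNA, was highest in siMyT1 on every array. By 1454960_at it measured 3.56, 3.99 and 3.86 units in siMyT1, 3.25, 2.85 and 3.14 units in siLSD1 and 2.60, 2.62 and 2.68 units in siControl. The 3 groups did not overlap, with siLSD1 between the others. The log2 fold change was 0.50 in siMyT1 against siControl (SE 0.08, adjusted p = 0.00733) and 0.21 in siLSD1 against siControl, which did not pass (interval 0.03 to 0.40, adjusted p = 0.222) except after quantile normalization (adjusted p = 0.0293). In siMyT1 against siLSD1 it was 0.29 (adjusted p = 0.0469), a call lost without any single array other than siMyT1 replicate 1 (adjusted p = 0.0515 to 0.155). Of 22 alternatives, this call held in 6, and it was lost after quantile normalization as well (adjusted p = 0.0862). The rise over siControl held without each single array and was lost with the 3 Smad3 probe sets averaged (adjusted p = 0.148). The other Smad3 probe sets, 1450472_s_at and 1450471_at, were dimmer, between 0.0922 and 1.15 units, and also lay apart from siControl in siMyT1, with log2 fold changes of 0.55 and 0.48 that did not pass (adjusted p = 0.193 and 0.598). On 1450471_at siLSD1 replicate 2 measured 0.0922 units, against 0.659 and 0.644 on the other siLSD1 arrays.

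Smad7, the inhibitory Smad that is itself a target of the pathway, measured 4.54, 5.45 and 4.80 units in siMyT1, 4.06, 4.83 and 5.19 units in siLSD1 and 3.94, 3.97 and 3.56 units in siControl by 1423389_at. Both knockdowns lay above siControl on all arrays and overlapped each other. Neither difference passed, with log2 fold changes of 0.35 (interval 0.13 to 0.57, adjusted p = 0.0970) and 0.28 (0.06 to 0.50, adjusted p = 0.171). The siMyT1 difference was called in 1 alternative, the test over the brighter probe sets alone (adjusted p = 0.0384), and the siLSD1 difference in 1, median centring (adjusted p = 0.0296). Its other probe set, 1443771_x_at, lay between 0.246 and 0.342 units on all arrays.

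Tgif1, a homeodomain repressor that binds Smad complexes, measured 10.4, 11.1 and 11.7 units in siMyT1, 7.99, 6.62 and 7.34 units in siLSD1 and 7.75, 7.77 and 7.29 units in siControl. The siMyT1 arrays lay above all others and the other groups overlapped. The log2 fold change was 0.53 in siMyT1 against siControl (SE 0.08, adjusted p = 0.00306) and 0.59 in siMyT1 against siLSD1 (adjusted p = 0.000514), and both calls held in all 22 alternatives. In siLSD1 against siControl it was -0.06 (interval -0.23 to 0.11). Skil, the Smad repressor SnoN, was read by probe sets that differed. By 1452214_at it measured 12.3, 12.5 and 13.5 units in siMyT1, 14.4, 13.1 and 13.4 units in siLSD1 and 13.6, 13.8 and 12.7 units in siControl, with all groups overlapping. Its log2 fold change was -0.07 in siMyT1 against siControl (interval -0.21 to 0.07, adjusted p = 0.709), and -0.10 in siMyT1 against siLSD1 (adjusted p = 0.430), called only after quantile normalization (-0.14, adjusted p = 0.0409). The dimmer Skil probe set, 1422054_a_at, measured 1.56, 1.98 and 1.47 units in siMyT1, 1.27, 1.12 and 1.02 units in siLSD1 and 1.44, 1.47 and 1.13 units in siControl. Its siMyT1 arrays overlapped siControl and lay above siLSD1. Its log2 fold change was 0.27 in siMyT1 against siControl (adjusted p = 0.451) and 0.48 in siMyT1 against siLSD1 (adjusted p = 0.0611). The last was called higher in 4 of 20 alternatives (adjusted p = 0.0177 to 0.0488), quantile normalization among them, where 1452214_at was called lower.

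**Figure D3:**
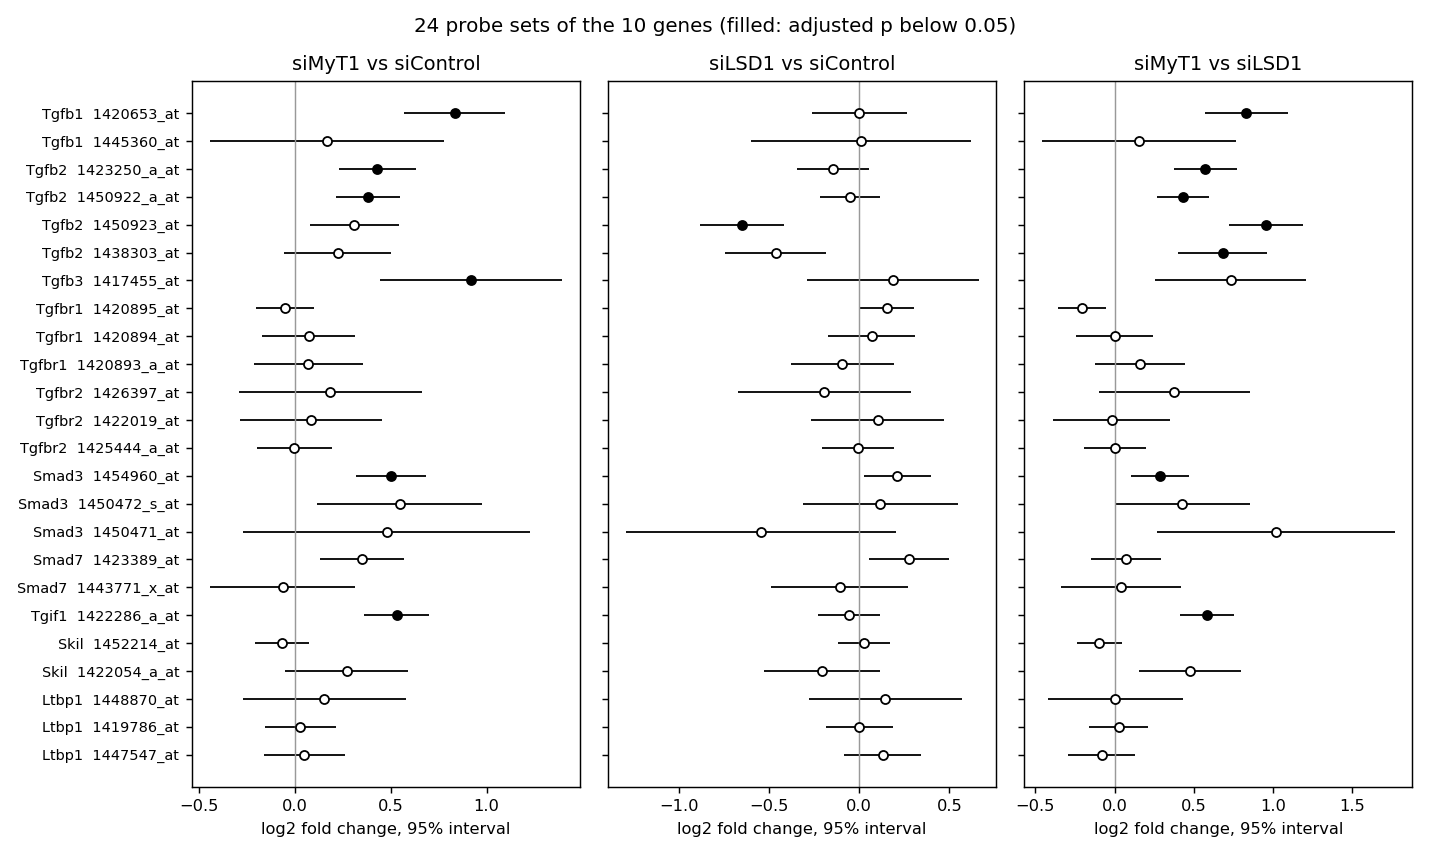
Log2 fold change with limma's 95% interval (horizontal axes) for all 24 probe sets (rows) in siMyT1 against siControl, siLSD1 against siControl and siMyT1 against siLSD1; filled points passed the adjusted p threshold. The filled points are 6 rises on the left, 1 fall of Tgfb2 1450923_at in the middle and 7 excesses of siMyT1 on the right.

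The wider pathway was followed in 5 lists of other genes, 85 of which had a named probe set. In siMyT1 9 rose and 1 fell, in siLSD1 7 rose and 2 fell, and in siMyT1 against siLSD1 13 were higher and 6 lower. Over all genes, 3.57% were called higher and 1.56% lower in siMyT1 against siControl. The shares were 3.26% and 3.95% in siLSD1 against siControl, and 11.3% and 4.77% in siMyT1 against siLSD1. The counts of each list below are to be read beside these shares. They are shares of the main fit and were not counted under other settings, so whether all genes moved likewise cannot be seen here. The split moved with the scaling: quantile normalization gave 9 higher and 6 lower in siMyT1 against siControl and 15 higher and 16 lower in siMyT1 against siLSD1. Median centring gave 9 higher and 1 lower in siLSD1 against siControl and 10 higher and 11 lower in siMyT1 against siLSD1. Their median log2 fold changes of 0.09, -0.04 and 0.09 lay close to those of all genes, 0.05, -0.03 and 0.09. Among 18 other Smads and Smad regulators, 2 rose in siMyT1 and 0 fell. Tgif2, the paralogue of Tgif1 and likewise a Smad repressor, measured 4.87, 5.60 and 5.26 units in siMyT1, 2.15, 2.29 and 1.83 units in siLSD1 and 2.27, 2.25 and 2.08 units in siControl. Its log2 fold change of 1.18 in siMyT1 against siControl (SE 0.10, adjusted p = 7.62e-05) was larger than that of any of the 10 members. Bambi, a decoy receptor that dampens TGF-beta and BMP signals, measured 10.8 ± 0.79 units in siMyT1 and 6.84 ± 0.35 in siControl (log2 fold change 0.64, adjusted p = 4e-04).

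In siLSD1 the regulator list gave 0 rises and 2 falls. Smad5, which carries BMP signals, measured 4.69, 4.12 and 4.06 units in siLSD1, 7.00, 7.48 and 7.98 units in siMyT1 and 7.91, 7.98 and 7.63 units in siControl (log2 fold change -0.84 in siLSD1 against siControl, SE 0.08, adjusted p = 5.77e-05). Smurf2, a ubiquitin ligase that acts with Smad7 on the receptor, was at 10.4 ± 0.67 units in siLSD1 and 12.7 ± 0.68 in siControl (-0.29, adjusted p = 0.0271, lost without any siControl array or siLSD1 replicate 2 or 3, at 0.0537 to 0.0991). Among 11 other receptors 0 were called in siMyT1, and in siLSD1 1 rose, the BMP type II receptor Bmpr2 (15.4 ± 0.63 units, against 11.7 ± 0.28 in siControl, log2 fold change 0.39, adjusted p = 0.00239). That call was lost with its probe sets averaged (adjusted p = 0.769). Bmpr2 was also lower in siMyT1 than in siLSD1 (-0.42, adjusted p = 0.000806), the only call among the 11 receptors there. With probe sets averaged it was lost too (adjusted p = 0.432). In siMyT1 against siLSD1, 5 of 18 regulators were higher, with Tgif2 (1.25), Smad5 (0.78), Bambi (0.67) and Zfyve9 (0.43) first. Zfyve9 is an adaptor that brings Smads to the receptor. Its call was lost without siMyT1 replicate 2 or siLSD1 replicate 3 (adjusted p = 0.0618 and 0.0598). Median centring ended this Zfyve9 call (adjusted p = 0.0844) and that of Smurf2 in siLSD1 against siControl (adjusted p = 0.259). Among 13 other ligands, most of them dim, 0 were called in either knockdown against siControl, and Inhba, an activin subunit, was higher in siMyT1 than in siLSD1 (0.253 ± 0.088 and 0.0536 ± 0.0092 units, adjusted p = 0.0157). The Inhba call was lost without siMyT1 replicate 3 or siLSD1 replicate 2 (adjusted p = 0.0593 and 0.0583).

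Among 15 genes of latency and activation, 3 rose in each knockdown and 0 fell. Itgav, the alpha-v integrin that releases latent TGF-beta, was the gene called in both, at 7.81 ± 0.77 units in siMyT1, 9.20 ± 0.11 in siLSD1 and 5.84 ± 0.62 in siControl (log2 fold changes 0.41 and 0.64, adjusted p = 0.0262 and 0.00104). Both Itgav calls were lost with its probe sets averaged (adjusted p = 0.0952 and 0.231). In siMyT1 the small matrix proteoglycans Bgn and Dcn, which bind TGF-beta, also rose (1.04 and 0.61, adjusted p = 0.0332 and 0.0446). Bgn was dim, at 0.54, 0.79 and 0.70 units in siMyT1, 0.085, 0.21 and 0.16 in siLSD1 and 0.12, 0.28 and 0.31 in siControl. Its log2 fold change in siMyT1 against siControl ran from 0.45 to 1.59 over the alternatives. These 3 siMyT1 calls were not firm. That of Itgav ended on leaving out siControl replicate 1 or 3, or siMyT1 replicate 2 or 3 (adjusted p = 0.0674 to 0.114). That of Bgn was lost without any siControl array, siMyT1 replicate 2 or 3 or siLSD1 replicate 3 (0.0529 to 0.138), and that of Dcn without any of the 9 arrays (0.0543 to 0.165). In siLSD1 the others were Furin, a protease that cleaves the TGF-beta precursor (0.31, adjusted p = 0.0441), and Itgb3, a partner of Itgav (0.76, adjusted p = 0.0491). Furin was lost without siControl replicate 1 or 3, siMyT1 replicate 3 or any siLSD1 array (0.0690 to 0.196) and Itgb3 without any siControl or siLSD1 array or siMyT1 replicate 3 (0.0568 to 0.170). In siMyT1 against siLSD1, Bgn (1.34) and Dcn (0.82) were higher, and Ltbp4, a latent TGF-beta binding protein of elastic fibres (-0.51, adjusted p = 0.00165), and Furin (-0.46, adjusted p = 0.00252) lower. With probe sets averaged, Bgn and Dcn were no longer called in siMyT1 against siLSD1 (adjusted p = 0.0600 and 0.0718). Their calls in siMyT1 against siControl were lost as well (adjusted p = 0.126 and 0.461).

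Of 28 genes known as TGF-beta targets, 4 rose and 1 fell in siMyT1, and 3 rose and 0 fell in siLSD1. The siMyT1 rises were the matrix genes Sparc (1.39, adjusted p = 5.55e-06) and Fn1 (0.77, adjusted p = 8.26e-05), smooth muscle actin Acta2 (0.67, adjusted p = 0.00102) and the repressor Zeb2 (0.58, adjusted p = 0.00786). The fall was that of the adhesion gene Ncam1 (-0.30, adjusted p = 0.0428), lost without any siControl or siMyT1 array or siLSD1 replicate 3 (0.0620 to 0.144). The calls of Acta2, Zeb2 and Ncam1 were lost with probe sets averaged (adjusted p = 0.196, 0.281 and 0.605). In siLSD1 the rises were Sparc again (0.85), Id3, a helix-loop-helix inhibitor that BMP signals induce (0.50, adjusted p = 0.00335), and Tgfbi, a secreted matrix protein (0.42, adjusted p = 0.0324, lost without any siControl array or siLSD1 replicate 1 or 3, at 0.0746 to 0.127). The Tgfbi call was also lost with probe sets averaged (adjusted p = 0.229). The inhibitors Id3 (-0.70), Id2 (-0.54) and Id1 (-0.27) were lower in siMyT1 than in siLSD1. In the same comparison Acta2 (0.95), Fn1 (0.68), Sparc (0.53) and the matricellular gene Ccn1 (0.91) were higher in siMyT1. With probe sets averaged, the calls of Acta2, Ccn1 and Id2 in that comparison were lost (adjusted p = 0.0701, 0.152 and 0.190). The Id1 call was lost without any siMyT1 array or siLSD1 replicate 1 or 2 (adjusted p = 0.0571 to 0.0993).

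**Figure D4:**
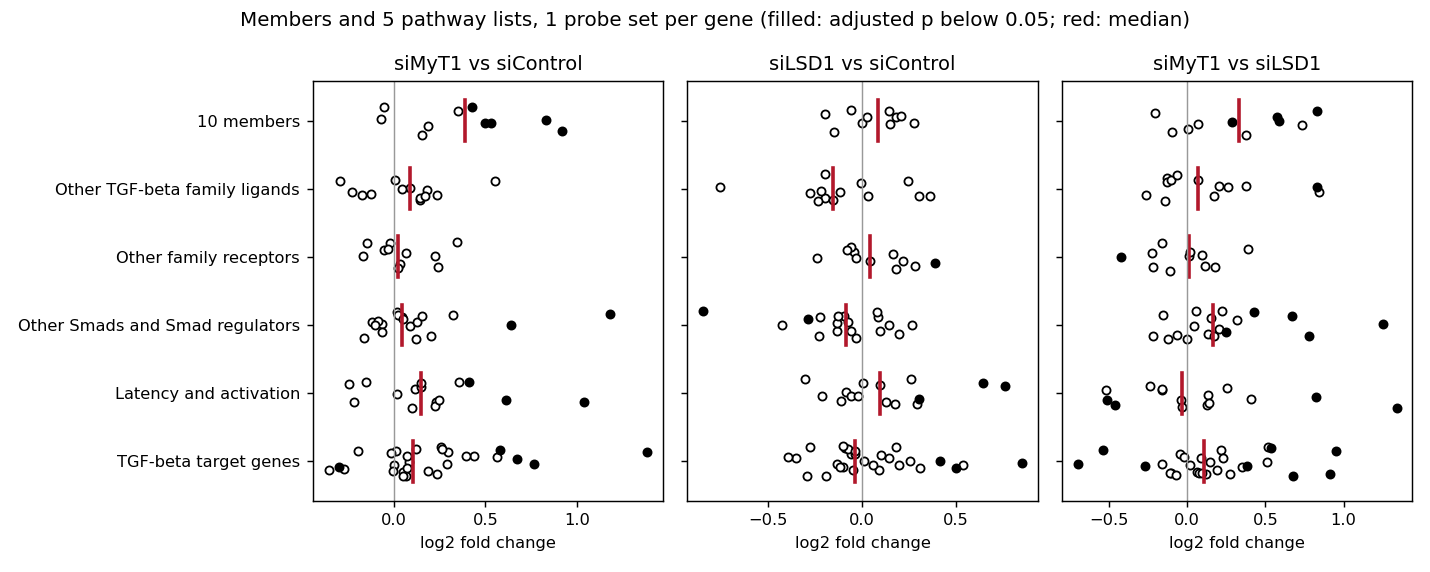
Log2 fold changes (horizontal axes) of the 10 members and of the 5 lists of other pathway genes (rows), 1 point per gene by its brightest probe set, in the 3 comparisons; filled points passed the adjusted p threshold and red lines are medians. The members' median in siMyT1 against siControl is 0.39, against medians of 0.02 to 0.15 for the 5 lists.

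RNA came from whole cultures, so more cells that express a gene and more RNA per cell cannot be told apart. The markers of other cell types were therefore read on the same arrays. The 10 fibroblast and mesenchymal markers summed to 5.43 to 6.12 units in siMyT1, 4.22 to 4.34 in siLSD1 and 4.14 to 5.69 in siControl. Of these, 1 (Dcn) rose in siMyT1, 7 had a mean below the pseudocount and 0 had a value at 0. The 4 endothelial markers summed to 1.56 to 2.53 units in siMyT1, 1.08 to 1.45 in siLSD1 and 0.796 to 1.66 in siControl, and 1, the angiopoietin receptor Tek, rose in siMyT1 (1.03, adjusted p = 0.0233). Of 4 macrophage and 3 Schwann cell markers 0 were called in any comparison. The neuroblastoma markers summed to 126 to 133 units in siMyT1, 164 to 178 in siLSD1 and 146 to 163 in siControl. Of these 10, 0 rose and 3 (Phox2a, Hand2 and Chga) fell in siMyT1, with a median log2 fold change of -0.27. In siLSD1 5 rose and 1 fell (median 0.35), and in siMyT1 against siLSD1 0 were higher and 6 lower (median -0.50). Over all genes the medians of these 3 comparisons were 0.05, -0.03 and 0.09. The shares of all genes called higher and lower were 3.57% and 1.56%, 3.26% and 3.95%, and 11.3% and 4.77%, in the same order. The part of these marker differences in the results for the TGF-beta genes was not tested.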

How the data were processed

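Total RNA was extracted with a Qiagen kit and labelled with biotin, per the labels' protocols. The deposited table holds 1 linear intensity for each probe set and array. How the authors summarised and scaled it is not given in the sources used here. They were analysed as log2(value + 0.196), where 0.196 units is a pseudocount of 32 on a scale (1 constant for all arrays, 163.6) that brings the trimmed mean intensity (2% off either end) to 500. No further normalization was applied. Probe sets were named from the platform's annotation where it gives 1 symbol, and 34741 of 34945 were matched by Entrez identifier to RefSeq's table; 64 control probe sets were left out. Differences were tested with limma 3.58.1 (R 4.3.3): group means over 9 arrays with trended moderation (residual degrees of freedom 6, prior 6.07), two-sided, adjusted by Benjamini-Hochberg over 45037 probe sets. Genes are counted by their brightest probe set, judged on the mean of the 9 arrays. The script was tested on simulated data. For arrays, their number limits the precision.

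The members and lists were chosen with earlier results of these data known. All members are described with each probe set, and, of the other pathway genes, up to 4 called genes per list, comparison and direction with the smallest adjusted p; cell type markers were named after their values were seen. Promoter sequences come from RefSeq's table. Quantile normalization, median centring, other pseudocounts, filters, units of test, variance models, a replicate block and leaving out each array were run as alternatives.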

Additional observations from a re-analysis of the deposited data

How the results depend on the processing

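Counts are given for the 10 member genes (by brightest probe set), the 24 member probe sets and the 85 other pathway genes. The share of all genes called was not counted under the alternatives, so a changed count may reflect all genes on the arrays. In siMyT1 against siControl, the main counts of 5 genes, 6 probe sets and 10 pathway genes became 3 genes with probe sets averaged per gene or without an intensity trend, 3 probe sets without an intensity trend, and 4 pathway genes with probe sets averaged. In siLSD1 against siControl, where 0 genes, 1 probe set and 9 pathway genes were called, quantile normalization gave 2 genes, 3 probe sets and 16 pathway genes, median centring 1 gene and 2 probe sets, and averaging probe sets 1 gene, Tgfb2, which was lower. A pseudocount of 1 on the larger scale, the brighter probe sets alone, no intensity trend, robust moderation and array weights each gave 2 probe sets, and 5 pathway genes were called without an intensity trend and with the replicate block. In siMyT1 against siLSD1, 31 pathway genes (15 higher, 16 lower) were called after quantile normalization, against 19 (13 higher, 6 lower). Leaving out each array in turn gave 3 to 4 genes, 3 to 5 probe sets and 6 to 9 pathway genes in siMyT1 against siControl, and 0 genes, 1 probe set and 5 to 9 pathway genes in siLSD1 against siControl. It gave 3 to 4 genes, 6 to 7 probe sets and 15 to 20 pathway genes in siMyT1 against siLSD1. No call of a member or of a pathway gene named here changed sign in any alternative that tested it.

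Same-numbered arrays of different groups showed little shared deviation (correlations of deviations from the group means from -0.039 to 0.043 over 9 pairs). Of the 9 arrays, 3 correlated best with an array of their own number. The correlations were over all probe sets fitted, dim ones included, so they cannot decide whether same-numbered arrays were handled together. With the replicate block, 4 member genes and 4 probe sets were called in siMyT1 against siControl. The calls lost were those of Tgfb3 (adjusted p = 0.0804) and of Tgfb2 1450922_a_at (adjusted p = 0.0559). Median centring shifted the median log2 fold change of all probe sets from 0.07 to -0.06 in siMyT1 against siLSD1. There the Smad3 call was lost (log2 fold change 0.16, adjusted p = 0.362), and Tgfbr1 was called lower in siMyT1 (-0.34, adjusted p = 0.0302), as it was after quantile normalization (-0.23, adjusted p = 0.00147). Probe sets near or below the pseudocount (Tgfb3, Tgfbr2 and Ltbp1, and Bgn and Inhba of the other genes) carry too little signal for a fold change to be read closely.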
